A study of Homo sapiens with 4 samples.

Results

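The 9 genes described here encode selenoproteins and were chosen by symbol: GPX1, GPX4, SEPW1 (now SELENOW), SEPN1 (SELENON), SELT (SELENOT), SELK (SELENOK), TXNRD1, TXNRD2 and SEPHS2. All 9 were found among the 15942 genes of the deposited count table, and all 9 were among the 15557 that passed a filter on low counts. They make up 9 of the 25 human selenoprotein genes. RNA was sequenced from H9, a human embryonic stem cell line in wide use, cultured without feeders on Matrigel in E8-supplemented medium. Cells received either a control siRNA to luciferase (siLuc, 2 libraries) or an siRNA to UPF1 (siUPF1, 2 libraries), and the stated purpose was to see which genes are expressed differently once UPF1 is lost. The treatment text of every library also names UPF3A siRNA and actinomycin D, which stops transcription, at several times, and it ties no library to a time. The table gives both control columns the same name, so they are called control a and control b. Whether the libraries in a group derive from separate cultures is not stated, so p-values cover only the spread between libraries, part or all of which may be technical.

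Selenocysteine is an amino acid that holds selenium in place of the sulfur of cysteine, and it usually sits at the catalytic site of redox enzymes. It is encoded by UGA, otherwise a stop codon, and a hairpin in the 3' untranslated region of the mRNA recruits the factors that insert it. When insertion fails, the ribosome stops at the UGA, and the transcript can become a target of nonsense-mediated decay (NMD), the pathway in which the helicase UPF1 degrades mRNAs whose translation ends well ahead of an exon junction.

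Selenocysteine codons are shown, 1 per gene, because each is a place where translation of these mRNAs can end early. Each sequence is the sense strand of the mRNA written as DNA, from the GENCODE release 29 transcript on GRCh38, with the UGA as TGA in capitals and 13 bases on either side.
GPX1: tgtggcgtccctcTGAggcaccacggtcc
GPX4: cgtggcctcccagTGAggcaagaccgaag
TXNRD1: ccaggctggctgcTGAggttaagccccag
TXNRD2: ggtgacaggctgcTGAgggtaagcgccat
SEPW1: ttattgtggcgctTGAggctacaagtcca
SELT: gatttgtgtttccTGAggttataggcggg
SELK: aatggctggtggaTGAggaaggtaaatgt
SEPN1: tccctggctcaatTGAtcctcctgcctca
SEPHS2: cggcatgaagggcTGAggctgcaaggtcc
Where a gene holds further selenocysteine codons, these are not shown. The codon shown for SEPN1 is followed by T, and those shown for the other 8 genes are followed by G. The SEPN1 codon shown is absent from another annotated transcript of this gene that holds a selenocysteine. Its T therefore does not set SEPN1 as a gene apart from the others. In TXNRD1 and TXNRD2 the UGA lies at the end of the reading frame, just ahead of the last codon.

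The place of the UGA sorts the genes in a way that bears on NMD, for which a stop more than 50 nt upstream of the last exon junction is the usual distance rule. In the main coding transcript, 6 of the 9 genes have a UGA beyond that distance. In GPX1, a peroxidase of the cytosol, it is codon 49 of 203, in exon 1 of 2, 105 nt before the last junction. The row of the count table for GPX1 lists 2 RefSeq transcripts, and the 1 that could be matched to GENCODE has a single exon and no junction, so its UGA does not meet the rule. In GPX4 it is codon 73 of 197, in exon 3 of 7 and 342 nt before the last junction. SEPW1 has it at codon 13 of 87, 243 nt before the last junction, and SELT at codon 49 of 195, 470 nt before it. In SEPN1 the UGA shown is codon 127 of 590 and lies 1221 nt before the last junction; it is present in 1 of the 2 annotated transcripts of this gene that hold a selenocysteine.

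TXNRD2 meets the rule in another way. Its UGA is codon 523 of 524, in exon 17 of 18, and it lies 71 nt before the last junction. The stop codon that ends the full-length protein also lies before that junction, by 65 nt, and GENCODE marks the transcript as an exception to its NMD class. The distance is the same in 6 of the 9 annotated TXNRD2 transcripts that hold the selenocysteine. The row of the count table pools 2 RefSeq transcripts, 1 of which has no selenocysteine and ends 68 nt after its last junction. Counts cannot be divided between them.

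The other 3 genes do not meet the rule. The UGA of TXNRD1, codon 498 of 499, lies in the last exon, 63 nt past the last junction. In SELK it is codon 92 of 94 and only 5 nt before the last junction. SEPHS2 has a single exon and no junction at all, with its UGA at codon 60 of 448. Counting every annotated transcript with a selenocysteine instead of the main one, 3 of the 9 genes have the UGA beyond 50 nt in all of them.

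**Figure D1:**
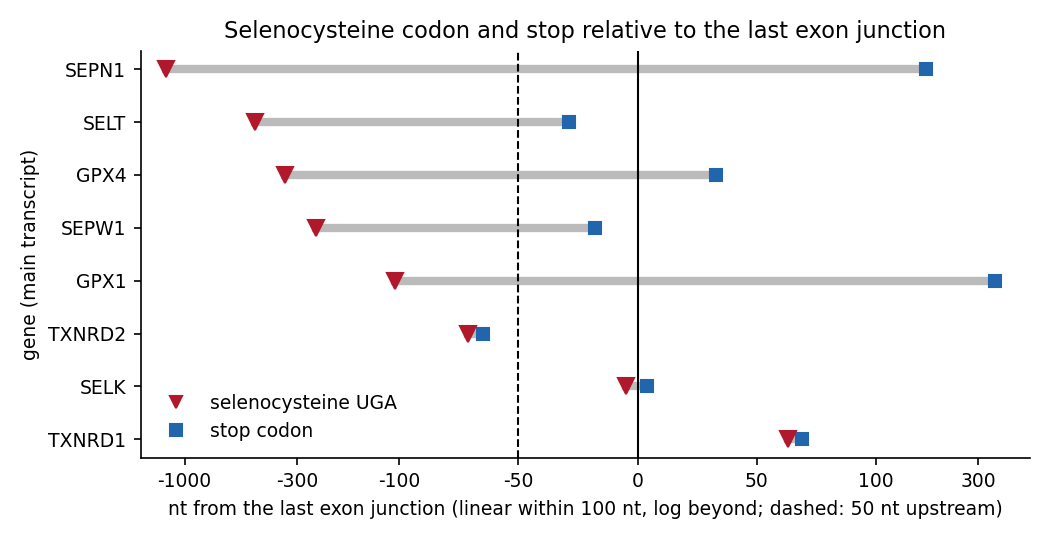
Position of the selenocysteine UGA shown for each gene (triangles) and of the stop codon (squares) in the main transcript of 8 genes, in nt from the last exon junction, on an axis that is linear within 100 nt and logarithmic beyond. The dashed line is 50 nt upstream of the junction; the UGA lies left of it in 6 genes, and the stop codon lies left of it only in TXNRD2. SEPHS2 has no junction and is not drawn.

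The knockdown was measured on UPF1 itself. UPF1 stood at 219 and 205 CPM (each count divided by its library's TMM-normalized total and multiplied by 1e+06) in controls a and b and at 60.8 and 78.2 CPM in siUPF1 replicates 1 and 2. Its mean fell to 32.8% of the control, a log2 fold change of -1.60 (SE 0.07, adjusted p = 1.06e-102, edgeR's quasi-likelihood test). Depth was 8887239 to 11200973 counts per library, and the siUPF1 libraries together were 12.9% deeper than the controls. Over all genes, 25.9% of those tested passed an adjusted p of 0.05, 16.8% upward and 9.14% downward. Of the calls 64.8% were rises, and 53.0% were with a trend on read density removed (described with the densities). All 8 pluripotency markers looked at were present, their summed level being 1701 and 1594 CPM in the controls and 1481 and 1367 CPM after siUPF1. None of them rose (also at an unadjusted p of 0.05 and in DESeq2) and 5 fell (median log2 fold change -0.20), but without control a 0 fell, with the density trend removed, without siUPF1 replicate 2 or in DESeq2 2 fell, without control b 3 and without siUPF1 replicate 1 all 8. The 3 with the smallest p were DNMT3B at -0.30, POU5F1 at -0.25 and ZFP42 at -0.20. Of 6 fibroblast markers 3 were in the table (COL1A1 at 0.09, POSTN at -0.09 and COL1A2 at 0.03) and none changed by edgeR, 0 also at an unadjusted p of 0.05 and in DESeq2. Of 10 markers of differentiated lineages 5 were in the table, of which 1 rose (GATA3, 1.19) and 3 fell (FOXA2 at -2.97 and MIXL1 at -0.82 among them). The levels of these named markers were low. Mean CPM went from 2.50 to 5.73 for GATA3, from 4.53 to 0.567 for FOXA2 and from 5.37 to 3.05 for MIXL1. With a filter of 5 CPM in 2 libraries, 3 of these lineage markers were tested, of which 1 rose and 1 fell. In DESeq2 and without control b 1 fell, and 2 fell without control a, without siUPF1 replicate 2 or with the density trend removed; MIXL1 had an adjusted p of 0.200 in DESeq2. Their part in the selenoprotein results was not tested.

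Of the 9 selenoprotein genes, 1 rose, 1 fell and 7 did not pass the test, so that 2 of 9 changed beside 25.9% of all genes. TXNRD2 rose and SEPHS2 fell. Per kb of transcript, TXNRD2 had the lowest level of the 9 in the controls and also after siUPF1. The median log2 fold change over the 9 genes was -0.11, and it was -0.01 over all genes tested.

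TXNRD2, the thioredoxin reductase of mitochondria, was the member with the largest difference. It was read 73 and 92 times in controls a and b and 420 and 417 times in siUPF1 replicates 1 and 2. In CPM this was 8.26 and 9.18 against 42.0 and 37.1. Both siUPF1 libraries lay far above both controls, and libraries of a group differed little beside that gap. The mean rose from 8.72 ± 0.650 to 39.6 ± 3.44 CPM (SD, n = 2 each), which is 4.52-fold (95% interval 3.75 to 5.45). The log2 fold change was 2.18 (SE 0.14, adjusted p = 5.80e-53, edgeR). It ranked 41st from the top among all 15557 genes tested. In bulk RNA a change in the level per cell and a change in the mix of cells cannot be told apart.

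The rise of TXNRD2 did not rest on a single library. The 4 ratios of a siUPF1 library to a control ranged from 2.02 to 2.35 on the log2 scale. With each library left out, with another normalization, filter or test and with the density trend removed, 11 fits in all, TXNRD2 rose each time, with log2 fold changes of 2.09 to 2.26 and adjusted p of 8.58e-54 to 1.44e-05. Its read density went from 0.0373 and 0.0470 reads per base of transcript to 0.214 and 0.213, below the densities of the other 8 genes. Whether counting used strand is not stated, so reads from the opposite strand at this locus cannot be told apart from those of TXNRD2.

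TXNRD1, the thioredoxin reductase of the cytosol, also has its UGA just ahead of the last codon, but in the last exon. It stood at 196 and 189 CPM in the controls and at 187 and 170 CPM after siUPF1. The siUPF1 libraries lay below both controls, replicate 1 by little. The log2 fold change was -0.11 (95% interval -0.25 to 0.03, adjusted p = 0.263, edgeR), whose interval ends far below the value of TXNRD2. On the scale of CPM per kb of transcript, which allows levels to be set side by side, TXNRD1 exceeded TXNRD2 in the controls, at 47.9 against 4.45, and after siUPF1, at 44.4 against 20.2.

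SEPHS2 makes selenophosphate, the selenium donor for selenocysteine, and is itself a selenoprotein. Its level was 112 and 107 CPM in the controls and 97.5 and 93.7 CPM after siUPF1. The groups did not overlap. The mean fell from 109 ± 3.87 to 95.6 ± 2.71 CPM (SD, n = 2 each), a log2 fold change of -0.19 (SE 0.07, adjusted p = 0.0329, edgeR). The call did not hold without control a (adjusted p = 0.369), without control b (0.110), without siUPF1 replicate 2 (0.106) or in DESeq2 (0.193). Raw counts were 991 and 1069 in the controls and 975 and 1052 in the siUPF1 libraries, so the fall is one relative to depth.

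The glutathione peroxidases, which use glutathione to reduce peroxides, did not pass the test. GPX1, which reduces hydrogen peroxide, stood at 64.9 and 60.2 CPM in the controls and at 59.9 and 54.9 CPM after siUPF1. GPX4, which reduces lipid peroxides in membranes and so guards against ferroptosis, stood at 55.4 and 50.6 CPM in the controls and at 48.7 and 44.5 CPM after siUPF1. In both genes the siUPF1 libraries were the lower ones, and in GPX1 siUPF1 replicate 1 all but met control b. The log2 fold change of GPX1 was -0.13 (95% interval -0.29 to 0.04, adjusted p = 0.273) and that of GPX4 -0.18 (-0.36 to -0.01, adjusted p = 0.104, edgeR). GPX4 passed only without siUPF1 replicate 1 (adjusted p = 0.0291). GPX1 has processed pseudogenes, and how reads matching several places were counted is not stated, so its level is uncertain.

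The remaining members are a small cytosolic protein and 3 proteins of the endoplasmic reticulum. SEPN1, the one mutated in a congenital muscle disease, stood at 195 and 185 CPM in the controls and at 163 and 176 CPM after siUPF1. The groups did not overlap, and the log2 fold change of -0.16 (95% interval -0.30 to -0.02) had an adjusted p of 0.0764 (edgeR). It passed only without siUPF1 replicate 2 (adjusted p = 0.0238). SEPW1, a small redox protein, stood at 52.7 and 48.7 CPM against 51.4 and 46.0 CPM after siUPF1. SELT, a thioredoxin-like protein, stood at 88.5 and 94.6 CPM against 96.7 and 82.9 CPM. In both the siUPF1 libraries bracketed or interleaved with the controls. SELK, a membrane protein that takes part in protein palmitoylation, stood at 24.1 and 22.8 CPM against 23.6 and 20.8 CPM, also with overlap. The log2 fold changes by edgeR were -0.06 for SEPW1 (95% interval -0.23 to 0.11), -0.03 for SELT (-0.18 to 0.11) and -0.08 for SELK (-0.33 to 0.17), with adjusted p of 0.668, 0.797 and 0.682. The upper ends of these 3 intervals correspond to increases of 8.22% for SEPW1, 8.27% for SELT and 12.4% for SELK.

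**Figure D2:**
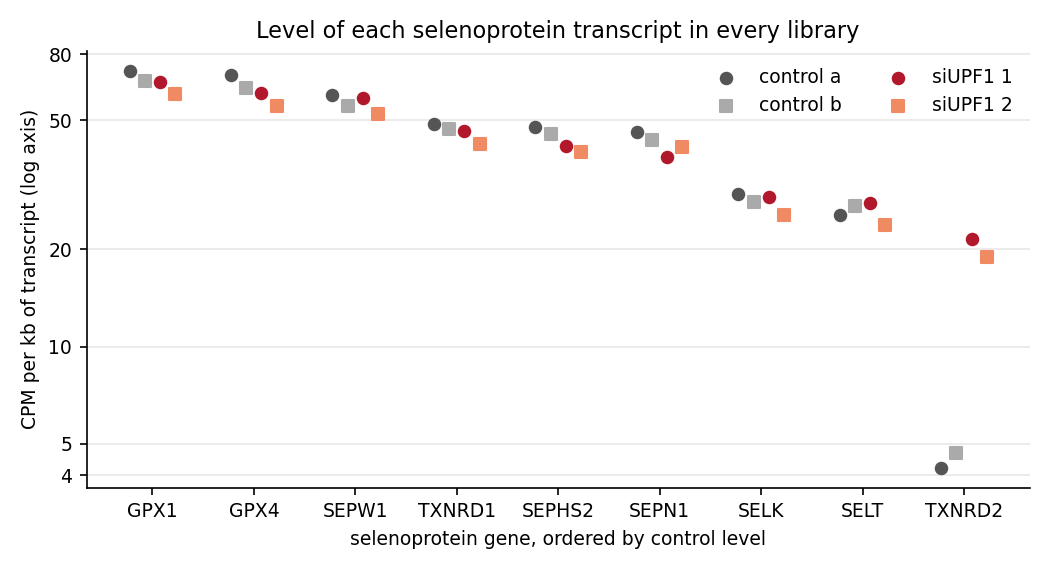
Level of the 9 selenoprotein genes in each library, as CPM per kb of transcript on a log axis, ordered by control level. Each point is a library: dark and light grey for controls a and b, red and orange for siUPF1 replicates 1 and 2. TXNRD2 moves from 4.21 and 4.68 to 21.4 and 19.0, while the points of the other genes lie close together.

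On the scale of CPM per kb, the control order ran from GPX1 (68.7) and GPX4 (66.0) through SEPW1 (57.8), TXNRD1 (47.9), SEPHS2 (46.7) and SEPN1 (44.7) to SELK (28.8), SELT (26.3) and TXNRD2 (4.45). The control ranges of GPX1 and GPX4 overlapped, as did those of TXNRD1 with SEPHS2 and of SEPHS2 with SEPN1. Within each control, the gene named first in these pairs was the higher one, by little. Differences between genes were not tested. After siUPF1, TXNRD2 at 21.4 and 19.0 stood just under SELT, which was at 27.8 and 23.8. The distance between the last 2 genes of the order was thus much smaller after siUPF1 than in the controls.

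In 5 of the 9 genes (GPX1, GPX4, SEPN1, TXNRD1 and SEPHS2) both siUPF1 libraries lay below both controls, a pattern that 31.1% of all genes tested showed. Both siUPF1 libraries were deeper than both controls, so library depth and the knockdown cannot be told apart in these small differences. In 4 of these 5 genes (not SEPN1), CPM decreased in the exact order of increasing depth, from control a to siUPF1 replicate 2. Choosing genes with both siUPF1 libraries lower already sets part of that order. It held in 4 of the 8 members other than TXNRD2 (50%). That order was found in 10.8% of all genes tested and in 24.2% of the 4855 genes whose read density lay within the range of the 8 members other than TXNRD2, 0.261 to 0.657 reads per base. The median density of all genes tested was 0.172. No gene with at least 100 counts in each library had more than 1.17 reads per base, and genes over 0.4 had a median log2 fold change of -0.09, with 84 of 2197 rising and 277 falling. The 4855 genes within the range of the members had a median of -0.06, with 404 rising (8.32%) and 399 falling (8.22%). The 8 members other than TXNRD2 had a median of -0.12, and of these SELT and SELK lay below 0.4 reads per base. The part of density in their differences was not tested beyond the fit that follows.

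With the trend on density removed, the 7 genes that had not passed still did not pass. Their log2 fold changes then ran from -0.11 for SEPN1 to 0.037 for SEPW1, whose sign thereby changed. SEPHS2 stood at -0.14 (adjusted p = 0.0438) and TXNRD2 at 2.10 (adjusted p = 1.44e-05, edgeR). Closest in depth were siUPF1 replicate 1 and control b, which differed by 1.22% in total counts. Between them the log2 ratio was 2.19 for TXNRD2, -0.18 for SEPN1, -0.13 for SEPHS2 and -0.05 for GPX4, and it lay from -0.02 to 0.08 for the other 5. Between siUPF1 replicate 2 and control a, which differed by 26.0% in total counts, it was 2.17 for TXNRD2 and lay from -0.32 (GPX4) to -0.09 (SELT) for the other 8.

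**Figure D3:**
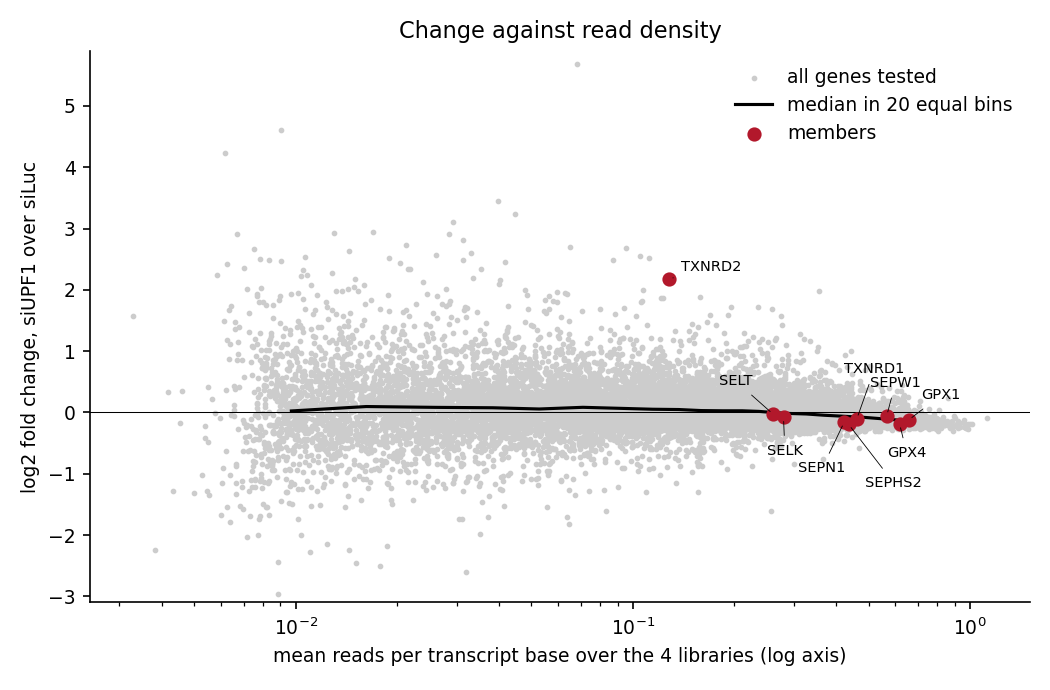
Log2 fold change (siUPF1 over siLuc) of all genes tested (grey) against mean reads per base of transcript on a log axis, with the median in 20 equal bins (line) and the 9 selenoprotein genes in red. The 8 members other than TXNRD2 lie at 0.261 reads per base or more, where the median line dips below 0, and TXNRD2 lies at 0.128 and 2.18.

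The remaining human selenoprotein genes gave a wider view of the family. Of the 16, 13 were tested (GPX6, DIO1 and DIO2 had no matching row). By edgeR none rose and none fell, beside 16.8% and 9.14% of all genes tested. Their median log2 fold change was -0.07. At an unadjusted p of 0.05 there were 1 above and 1 below, and DESeq2 called 0 either way. A single rise was called without siUPF1 replicate 2 and with the density trend removed. The smallest p belonged to GPX3, the secreted glutathione peroxidase, at 0.19 (adjusted p = 0.0638). C11orf31, now SELENOH, stood at -0.20 (adjusted p = 0.114), and DIO3, which inactivates thyroid hormone, at 0.61 (adjusted p = 0.138) on only 12 to 32 counts per library. TXNRD3, the third thioredoxin reductase, stood at 0.18 with a 95% interval of -0.12 to 0.49. TXNRD3 was added after its value was seen, as the paralog of TXNRD1 and TXNRD2.

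**Figure D4:**
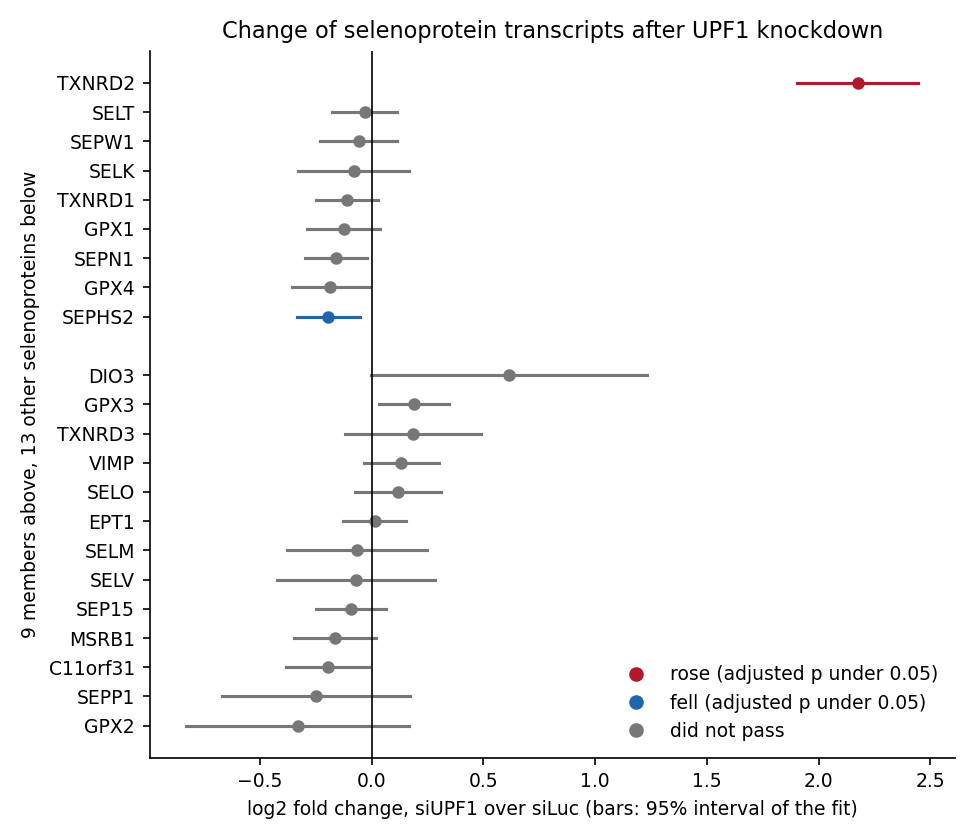
Log2 fold change (siUPF1 over siLuc) of the 9 members, above, and of 13 other selenoprotein genes, below, with 95% intervals of the fit. TXNRD2 (red, rose) stands at 2.18, SEPHS2 (blue, fell) at -0.19, and no other gene passed an adjusted p of 0.05.

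The family was also split by the place of the UGA. Of the 13 tested selenoprotein genes with a UGA over 50 nt before the last junction 1 rose (TXNRD2) and 0 fell, with a median log2 fold change of -0.09. Of the 9 with the UGA elsewhere 0 rose and 1 fell (SEPHS2), with a median of 0.01. Among the members, the 6 genes with a distant UGA had 1 rise and a median of -0.09, and the other 3 had 1 fall and a median of -0.11. The difference between these sets was not tested. Over all genes tested, 16.8% rose and 9.14% fell.

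TXNRD2 is also the only member of the 9 whose stop codon lies over 50 nt before the last junction in the main transcript. Of 13471 tested coding genes with a stop position, 45 share this in their main coding transcript; this comparison was drawn up after the values were seen. Of these 45, 15 rose (33.3%) and 2 fell (4.44%), with a median log2 fold change of 0.14. Of the 13471, 2250 rose (16.7%) and 1322 fell (9.81%). The 2 sets differ in median read density, at 0.128 reads per base for the 45 and 0.191 for the 13471. With the density trend removed, 13 of the 45 rose and 5 fell, beside 2234 and 1982 of all genes tested. TXNRD2 ranked 1 among the 45, followed by HRK, an activator of apoptosis, at 1.35 (adjusted p = 2.57e-09) and SMIM10L2A at 1.19 (adjusted p = 6.96e-22, edgeR), which were named after their values were seen. Over the alternative fits 11 to 17 of them rose and 0 (DESeq2, and without control a) to 5 (density trend removed) fell. Without siUPF1 replicate 2 there were 4 falls and the median was 0.055. So 28 of the 45 did not pass, and the share that rose was not tested against the other genes.

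**Figure D5:**
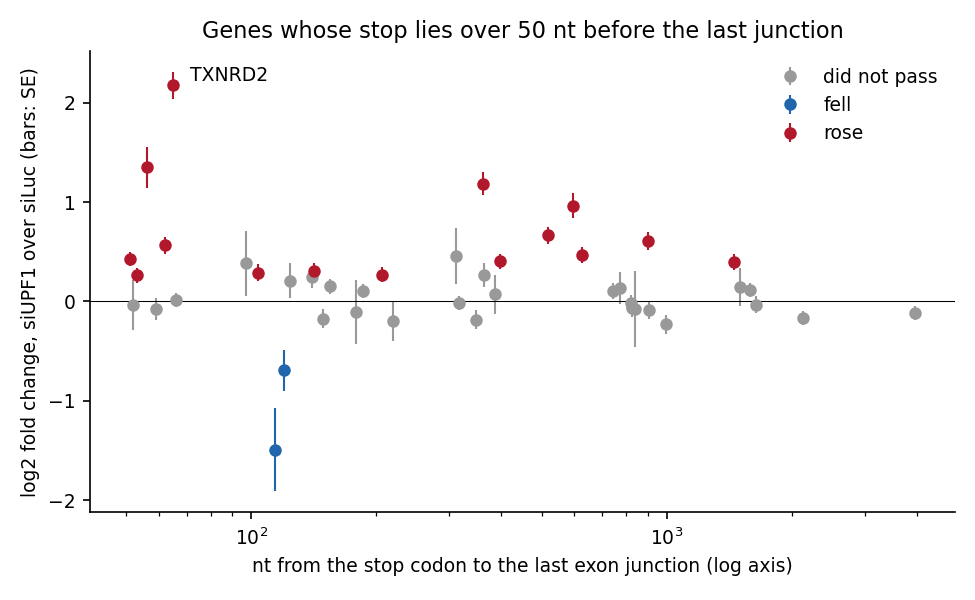
Log2 fold change (siUPF1 over siLuc, bars: SE) of the 45 tested genes whose stop codon lies over 50 nt before the last exon junction, against that distance in nt on a log axis. Red points rose (15), blue points fell (2) and grey points did not pass (28); TXNRD2, at 65 nt, is the highest.

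The factors that place selenocysteine were split in direction. Of 13 tested, 3 rose and 3 fell (23.1% each), beside 16.8% and 9.14% of all genes tested. Their median log2 fold change was 0.01. SEPSECS, which makes the selenocysteyl-tRNA, rose from 22.7 and 24.6 CPM to 35.3 and 33.2 CPM. This was a log2 fold change of 0.53 (SE 0.11, adjusted p = 4.44e-05, edgeR), and 0.43 to 0.58 over the 11 alternative fits. TRIT1, which modifies the anticodon loop of that tRNA among others, rose by 0.29 (adjusted p = 0.00242), and SARS, the seryl-tRNA synthetase that charges it, by 0.19 (adjusted p = 0.0309). NCL fell by 0.24 (adjusted p = 0.00416), RPL30 by 0.25 (adjusted p = 0.0452) and SEPHS1, a relative of SEPHS2 without selenocysteine, by 0.23 (adjusted p = 0.00611, edgeR). Both NCL and RPL30 have been reported to bind the selenoprotein hairpin. The counts were 1 rise and 0 falls without control a, 1 and 1 without control b, 3 and 0 without siUPF1 replicate 2 or with the density trend removed, 2 and 4 without siUPF1 replicate 1, and 1 and 2 in DESeq2. SECISBP2, the protein that recognises the hairpin, stood at -0.02 and EEFSEC, the elongation factor that delivers the tRNA, at -0.14, and neither passed; both were added after their values were seen.

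Relatives of selenoproteins that lack selenocysteine have no selenocysteine UGA to be misread. Of 9 tested, 1 rose and 1 fell (11.1% each), beside 16.8% and 9.14% of all genes tested. Their median log2 fold change was 0.04. MSRB3, a methionine sulfoxide reductase, stood at 3.73 and 6.28 CPM in the controls and at 12.0 and 12.6 CPM after siUPF1, a rise of 1.28 (SE 0.20, adjusted p = 2.21e-09). SEPHS1 is the gene that fell, a call lost in 3 of 11 alternative fits. Without siUPF1 replicate 2 or with the density trend removed 2 rose and 0 fell. GPX8, a glutathione peroxidase relative of the endoplasmic reticulum, stood at 0.17 (adjusted p = 0.0646, edgeR).

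Thioredoxin reductases keep thioredoxin reduced, and it in turn serves the peroxiredoxins. Of 15 thioredoxin and glutathione partners 2 rose (13.3%) and 0 fell, beside 16.8% and 9.14% of all genes tested. Their median log2 fold change was -0.11. TXNIP, the inhibitor that binds thioredoxin, rose from 24.5 and 27.3 CPM to 89.8 and 81.5 CPM, by 1.72 (SE 0.09, adjusted p = 4.07e-77). GSS, which completes glutathione synthesis, rose by 0.22 (adjusted p = 0.0267), and PRDX3, the mitochondrial peroxiredoxin, stood at -0.18 (adjusted p = 0.0572, edgeR). TXN2, the mitochondrial thioredoxin that TXNRD2 reduces, stood at 62.8 and 61.3 CPM in the controls and at 66.9 and 60.4 CPM after siUPF1, with overlap; it was added after its value was seen. At an unadjusted p of 0.05 there were 2 falls, and 6 of the 15 fell in the fit without siUPF1 replicate 1. In DESeq2 and without either control only 1 rose.

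TXNRD1 is a known target of NRF2, the transcription factor of the oxidative stress response. Of 16 other NRF2 targets 5 rose (31.25%) and 0 fell, beside 16.8% and 9.14% of all genes tested. Their median log2 fold change was -0.03. SLC7A11, the cystine importer, rose by 0.46 (adjusted p = 5.40e-09), SRXN1 by 0.43 (adjusted p = 2.58e-07) and ME1 by 0.36 (adjusted p = 0.000249, edgeR). The other two that rose were GCLM and OSGIN1. The counts were 2 rises without control a, 7 without siUPF1 replicate 2 or with the density trend removed, 4 rises and 5 falls without siUPF1 replicate 1, and 3 rises in DESeq2. At an unadjusted p of 0.05 edgeR counted 1 fall, and DESeq2 counted 0 falls.

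GPX4 is the central brake on ferroptosis, cell death by lipid peroxidation. Of 10 other regulators of that process 2 rose (20%) and 0 fell, beside 16.8% and 9.14% of all genes tested. Their median log2 fold change was 0.09. AIFM2, which protects membranes in parallel to GPX4, rose from 27.7 and 27.5 CPM to 45.8 and 48.9 CPM, by 0.78 (SE 0.10, adjusted p = 5.04e-13). The other was SLC7A11. At an unadjusted p of 0.05 there was 1 fall in edgeR, and DESeq2 called 0. GCH1, which makes the protective cofactor tetrahydrobiopterin, stood at 0.23 (adjusted p = 0.0587, edgeR). With the density trend removed 4 of the 10 rose, and 3 rose without either of the siUPF1 libraries, with 1 fall when replicate 1 was left out.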

How the data were processed

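One table of read counts and RPKM values was used. Whole-number read counts per gene were deposited by the authors without normalization, per the file headers, and RPKM values (counts divided by length and by the total) were deposited beside them. The submitters' processing notes name STAR, DESeq2 and the build hg19, with no versions. Strand use, multimapping and repeated reads are not given in the sources used here. The 2 control RPKM columns were not used, since their names do not tie them to libraries. Transcript length was derived from the siUPF1 RPKM values.

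Counts were tested with edgeR 4.0.16 (glmQLFit and glmQLFTest, two-sided, TMM, filterByExpr, Benjamini-Hochberg at 0.05 over all 15557 genes; 385 were filtered out) in R 4.3.3. With 2 libraries a group, the spread is borrowed across genes (biological coefficient of variation 4.47%). Chi-square per degree of freedom between replicates was 1.71 for controls and 2.88 for siUPF1, above sampling noise, so none was counted as a copy. Depth was 8887239 to 11200973 counts per library. At that depth counting error is small at 100 CPM and larger near 1 CPM. Control columns carry no replicate numbers. The SE of a log2 fold change is its size over the square root of F, and its 95% interval comes from the same fit.

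Reads per base are counts over transcript length. The density trend was removed as a loess offset (span 0.3) per library. UGA and stop positions come from GENCODE release 29 on GRCh38, and only transcript positions are used because the table was built on hg19. The main transcript is the annotated selenocysteine transcript with the longest coding sequence, principal or basic ones first. For the comparison of stop positions over all coding genes, a coding transcript was picked by the same order, with or without a selenocysteine. Whether that transcript is among those counted for the gene was not checked. Genes were matched by symbol; SELENOF was matched by RefSeq accession because its older symbol reads as a date.

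Alternatives were DESeq2 1.42.0, limma-voom (limma 3.58.1), RLE size factors, unscaled library totals, no filter, 5 CPM in 2 libraries, an adjusted p of 0.1, the density trend removed, and each library left out. Members and lists were chosen with earlier results of these data known. Named genes are the 9 members, UPF1 and the 3 genes of smallest p in each list. The lists are other selenoproteins, insertion factors, relatives without selenocysteine, thioredoxin and glutathione partners, NRF2 targets, ferroptosis regulators, and pluripotent, fibroblast and differentiated lineage markers. Other named genes are marked or complete a count. The fit was tested on simulated data with known changes. Some items are not reported here.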

Additional observations from a re-analysis of the deposited data

How the results depend on the processing

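Of the 9 selenoprotein genes 2 were called by edgeR, 1 by DESeq2 and 1 to 3 with a library left out. TXNRD2 was called in each of these fits, and SEPHS2 was lost in DESeq2 and without control a, control b or siUPF1 replicate 2. Over all genes 4035 were called by edgeR, 1739 by DESeq2, and 1996 (without control a) to 4287 (without siUPF1 replicate 1) with a library left out. Without control b the number was 2199. The UGA lay beyond 50 nt in 6 genes in the main transcript and in 3 when every annotated selenocysteine transcript had to meet the rule. At an adjusted p of 0.1, edgeR called 3 of the 9 selenoprotein genes, 1 upward (TXNRD2) and 2 downward (SEPHS2 and SEPN1). SEPW1 stood at 0.037 with the density trend removed. With a library left out the log2 fold change ran from -0.14 to 0.023 in SEPW1, from -0.14 to 0.078 in SELT and from -0.17 to 0.010 in SELK, none past the threshold. The cause of these shifts was not tested. When a library is left out, the lone one of its group has no spread of its own, and the spread of the other group stands in for it. With 2 libraries a group, rises of up to 12.4% (SELK) remain within the 95% intervals of the members that did not pass. No paired analysis was possible because the control columns carry no replicate numbers.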
